A study of Rattus norvegicus with 30 samples.

Results

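Rat bone marrow mesenchymal stem cells (BMSCs) kept for 3 h in osteogenic medium (OS_3h, n = 3) were compared directly with the same kind of cells kept for 3 h in chondrogenic medium (CH_3h, n = 3), without use of the undifferentiated cells as a common reference. These 6 samples are a part of a series of 30, which has 10 groups of 3 samples, the undifferentiated cells (CON) and the osteogenic (OS), adipogenic (AD) and chondrogenic (CH) cells at 3 h, 12 h and 3 d. All groups came from BMSCs of 3-week-old female Sprague Dawley rats at passage 2, grown beforehand in DMEM with fetal bovine serum. Each sample was RNA of 3 pooled cultures, and p-values measure the spread between such pools, not between animals. The osteogenic, chondrogenic and adipogenic media were commercial mixtures whose ingredients are not given in the sources used here, and the cells carried no transgene or other genetic change. The comparison asks which genes already told osteogenesis and chondrogenesis apart 3 h after induction.

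BMSCs are stromal cells of the marrow that can form bone, cartilage and fat in culture. Chondrogenesis depends on the transcription factor (TF) Sox9, which switches on the genes of cartilage matrix, and TGF-beta family ligands are the usual inducers of it. Osteogenesis runs through Runx2 and Sp7 and is promoted by BMP and Wnt signals, and glucocorticoids are widely used in media for each of these lineages. In the first hours after a change of medium, cells also answer growth factors through the ERK kinase pathway, which induces its own inhibitors, the dual specificity phosphatases and the Sprouty proteins.

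RNA-seq values are in CPM, read counts scaled to the same total in each sample. Gene length does not enter them, so levels were compared between samples and not between genes. The 6 samples held 6329536 to 8135015 reads (median 6742784), of which the listed genes held 61.5 to 68.8%. The detection floor was set at 3 reads per library (0.369 to 0.474 CPM) and covers counting error only. Replicate 3 of OS_3h stood apart from its group. In it 326 of the 3163 tested genes lay over 1 on the log2 scale from the mean of the other two, against 85 and 101 for the other OS_3h samples and 16 to 28 for the CH_3h samples, and results that depend on it are given with and without it. Across the tested genes, distances between samples of different groups (39.2 to 47.6 on the log2 scale, 9 pairs) were all larger than those within a group (18.7 to 37.6, 6 pairs). Some genes that most cells use heavily had low values in the files, among them Aldoa (12.7 CPM in OS_3h), Eno1 (5.40 CPM) and Actn1 (0.787 CPM), so a value near 0 is given as listed and not as absence of expression. The BMSC surface markers Thy1, Cd44 and Itgb1 had means of 6280, 1725 and 14553 CPM in OS_3h, whereas Eng, Pdgfra, Pdgfrb, Twist1 and Vcam1 were listed at 1.47 CPM or less. The means of the first 3 in CH_3h were 6029, 993 and 9024 CPM. The summed BMSC markers, 11 of 19 names being listed, did not overlap between the groups (21323 to 23219 CPM in OS_3h, 15475 to 17049 CPM in CH_3h, 16086 to 16894 CPM in CON). Itgb1 made up the largest part of this sum, whereas the Thy1 means were close. No overlap was also seen in 36.5% of the tested genes. Of the macrophage, endothelial, and erythroid and lymphoid markers, only 5 of 20, 7 of 14 and 6 of 17 names were listed in the files. The summed levels of the listed names were at most 1.35, 5.53 and 3.69 CPM in any of the 6 samples. The unlisted names could not be measured, so these low sums do not show that such cells were few. The erythroid and lymphoid sum was higher in CH_3h (2.70 to 3.69 CPM) than in OS_3h (0.157 to 0.553 CPM), the macrophage sums overlapped, and the part of any of these markers in the results was not tested.

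limma was fitted on log2(CPM + 1) of these 6 samples, for the 3163 genes that reached 1 CPM in 3 or more of them. A gene was called when its log2 difference was 1 or more in either direction and its p, adjusted after Benjamini and Hochberg, was below 0.05. By this rule 286 genes (9.04%) were called, 88 (2.78%) higher in OS_3h and 198 (6.26%) higher in CH_3h. Their samples did not overlap between the groups in 286 of 286 genes, but this was also true of 36.5% of the tested genes. Of the 286 genes, 95 had under 5 CPM in their higher group and 32 had at most 3 reads in each sample of the lower one. The split between the directions moved with the scaling, since 44.2% of the called genes were higher in OS_3h after quantile normalization in place of 30.8%, which shifted the median difference from -0.10 to 0.02. Without OS_3h replicate 3, 10.1% of the genes were called, 90 and 230, and 258 of the 286 genes were among them. edgeR on the recovered reads called 8.85%. Without CH_3h replicate 3, 58 and 143 genes were called. At an adjusted p under 0.05 and any fold, 5.12% of the genes were higher in OS_3h and 11.3% higher in CH_3h. Differences are given as OS_3h minus CH_3h in log2(CPM + 1), in which the added 1 makes those of low genes too small, with the SE and adjusted p of limma.

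**Figure D1:**
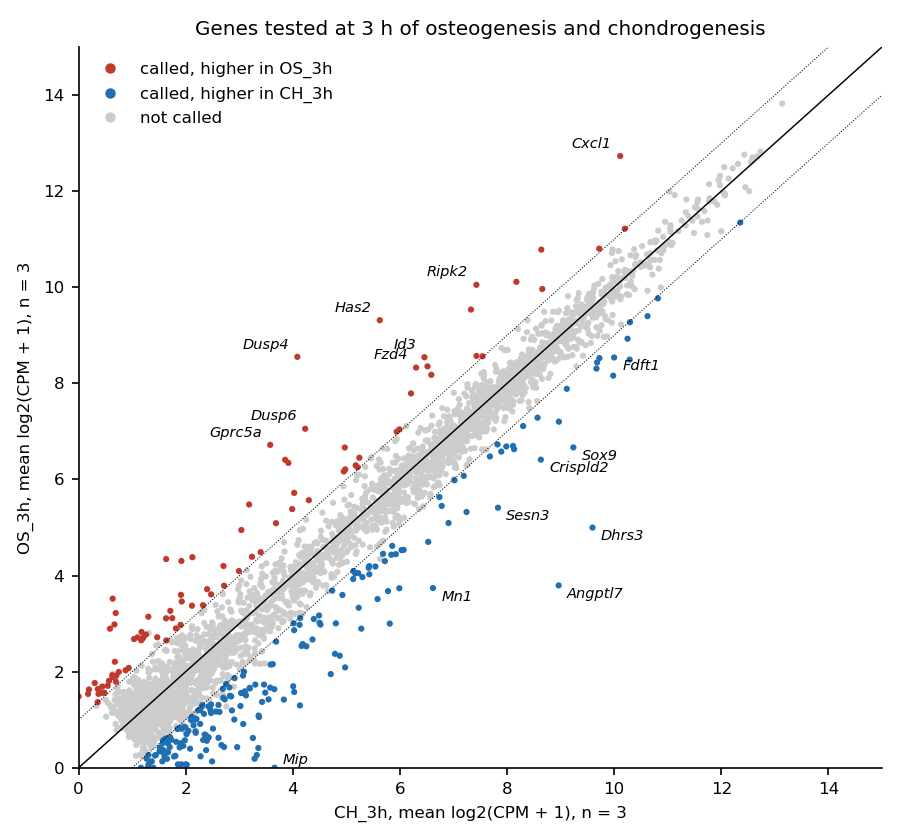
Mean log2(CPM + 1) of each of the 3163 tested genes in CH_3h (x axis) and OS_3h (y axis), n = 3 each. The solid line marks equal means and the dotted lines a difference of 1; red points are the 88 genes called higher in OS_3h and blue points the 198 called higher in CH_3h, with Dusp4, Has2 and Cxcl1 far above the line and Angptl7, Dhrs3 and Sox9 far below it.

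The gene with the largest difference toward osteogenesis was Dusp4, a phosphatase that switches off ERK in the nucleus and is itself induced by ERK. It measured 338, 331 and 468 CPM in the 3 OS_3h samples and 15.7, 17.5 and 14.8 CPM in the 3 CH_3h samples, against 36.4, 37.9 and 36.7 CPM in CON. The OS_3h samples therefore lay above and the CH_3h samples below the undifferentiated ones, and the OS_3h mean was 23.7-fold that of CH_3h (difference 4.47, SE 0.17, adjusted p = 8.1e-07). Dusp6, the phosphatase that acts on ERK in the cytoplasm, had 107, 103 and 209 CPM in OS_3h and 14.98, 19.96 and 18.7 CPM in CH_3h (difference 2.83, SE 0.27, adjusted p = 0.00018). Here OS_3h replicate 3 was the highest sample, but the other two also exceeded each CON sample (32.2 to 45.8 CPM). Spry2, which blocks ERK activation downstream of receptor tyrosine kinases, had 22.9, 27.3 and 10.4 CPM in OS_3h and 3.00, 3.38 and 2.09 CPM in CH_3h (difference 2.38, SE 0.35, adjusted p = 0.0021). Spred2, a relative of the Sprouty proteins, was also higher in OS_3h by 1.55 (SE 0.23, adjusted p = 0.0024).

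Of the 53 names in the list of immediate-early, MAPK feedback and FGF genes, 14 were tested. Of these 14, 5 were called higher in OS_3h and 2 higher in CH_3h, against 2.78% and 6.26% of all tested genes. The median difference of the 14 was 0.71, whereas that of all tested genes was -0.10. Besides these 4 inhibitors, Areg, an EGF receptor ligand, was called higher in OS_3h with 1.41, 1.42 and 3.18 CPM against 0, 0.44 and 0 CPM, which is at most 3 reads in a CH_3h sample, and it lost the call without CH_3h replicate 1 or 3. The 2 members called higher in CH_3h were Fgf18, a growth factor of cartilage (0.627, 0.316 and 0 CPM in OS_3h, 3.45, 4.84 and 4.43 CPM in CH_3h, difference -2.01), and Jun, a subunit of the AP-1 factor (difference -1.01). Jun was at the edge of the fold threshold and was no longer called without OS_3h replicate 1 or 3 or CH_3h replicate 3, or after median-ratio scaling or quantile normalization. Klf4, a TF induced by serum and growth factors, had a difference of 0.80 (SE 0.12, adjusted p = 0.0025), under the fold threshold.

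Chemokine and cytokine genes formed the list with the highest median, 0.75 over 16 tested members, of which 6 were called higher in OS_3h and 2 in CH_3h, against 2.78% and 6.26% of all tested genes. Cxcl1, which attracts neutrophils, measured 7618, 8070.4 and 5113 CPM in OS_3h, 1159, 1112 and 1048 CPM in CH_3h, and 2996, 3574 and 3120.0 CPM in CON (difference 2.62, SE 0.16, adjusted p = 1.9e-05). The lowest OS_3h sample, replicate 3, was still above the highest CON sample and the CH_3h samples were below the lowest. Its neighbour on chromosome 14 in GRCr8, Cxcl2, a chemokine of the same kind, had 7.21, 7.27 and 10.9 CPM in OS_3h and 0.30, 1.17 and 0.492 CPM in CH_3h (difference 2.53, SE 0.29, adjusted p = 0.00058).

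The promoters of Cxcl1 and Cxcl2 are shown because these genes had the largest differences among the chemokines and because both windows hold matches to an NF-kappaB-type motif, searched on either strand as GGG, any 2 bases and TTTCC. Each window runs from 250 bases before to 50 bases after the RefSeq start in GRCr8 (chr14:17479272-17479571 for Cxcl1 and chr14:17467206-17467505 for Cxcl2, both on the minus strand), and capitals mark the matches.
Cxcl1: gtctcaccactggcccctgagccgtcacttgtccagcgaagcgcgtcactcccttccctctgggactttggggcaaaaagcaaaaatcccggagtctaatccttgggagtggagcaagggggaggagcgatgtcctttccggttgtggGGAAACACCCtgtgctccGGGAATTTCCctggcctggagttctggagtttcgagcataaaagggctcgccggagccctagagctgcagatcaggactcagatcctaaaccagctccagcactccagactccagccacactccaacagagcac
Cxcl2: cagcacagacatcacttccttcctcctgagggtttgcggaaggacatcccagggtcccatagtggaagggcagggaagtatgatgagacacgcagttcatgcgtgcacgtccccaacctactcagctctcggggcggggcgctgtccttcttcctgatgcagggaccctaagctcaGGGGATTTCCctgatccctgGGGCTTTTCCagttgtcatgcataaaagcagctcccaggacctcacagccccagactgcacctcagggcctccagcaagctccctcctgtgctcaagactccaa
The 2 matches began 102 and 84 bases before the start in Cxcl1 and 74 and 54 bases before it in Cxcl2. The motif was found in 1.53% of 33469 RefSeq promoters, in 1.86% of the 2360 promoters that matched tested genes, in 5 of the 13 promoters found for tested members of the cytokine list (38.5%), and in 2 of the 6 of those called higher in OS_3h. The other holders in the list, Nfkb1, Il6 and Cxcl6, were not called. Among all genes called higher in OS_3h, 2 of the 63 with a promoter held it (3.17%), and among those called higher in CH_3h 3 of 149 (2.01%). An AP-1-type motif (TGA, any base, TCA) and a sterol-response-type motif (TCAC, any base, CCAC) were searched likewise. The former was found in 7.33% of all promoters and in 4.83% of those that matched tested genes. It was found in 3 of the 13 of the cytokine list (23.1%) and in 0 of the 10 found for tested members of the immediate-early, MAPK feedback and FGF list. The latter was found in 1.12% of all promoters, in 1.31% of those that matched tested genes and in 0 of the 8 found for the cholesterol and fatty acid list. Those 8 covered only 2 of the 5 called members of that list. These matches describe the letters of the window and no binding was measured.

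Il1a, Il1b and Csf2, cytokines of inflammation and of granulocyte and macrophage growth, were low in the files but were called higher in OS_3h as well. Il1a had 9.56, 9.32 and 2.77 CPM in OS_3h and 0.749, 0.294 and 0.492 CPM in CH_3h, while CON had 5.61 to 9.74 CPM. Il1b had 7.99, 9.48 and 10.8 CPM in OS_3h and 2.70, 4.26 and 3.20 CPM in CH_3h, and was not called without CH_3h replicate 1. Csf2 (difference 1.12) lost its call in 3 of the 6 fits that left a sample out. Tnfrsf12a, the receptor of the cytokine TWEAK, measured 1603, 1572 and 2264 CPM in OS_3h against 833, 887 and 809 CPM in CH_3h (difference 1.08, SE 0.15, adjusted p = 0.0012), but was not called without OS_3h replicate 3. The monocyte chemokines went the other way. Ccl2 had 328, 329 and 292 CPM in OS_3h and 827, 847 and 766 CPM in CH_3h (difference -1.36, SE 0.10, adjusted p = 4.4e-05), and Ccl7 had 161, 160.4 and 144 CPM against 391, 415 and 335 CPM (difference -1.28, SE 0.12). For both chemokines the CON samples, at 1257 to 1429 CPM and 1116 to 1145 CPM, were above each of the 6 samples.

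**Figure D2:**
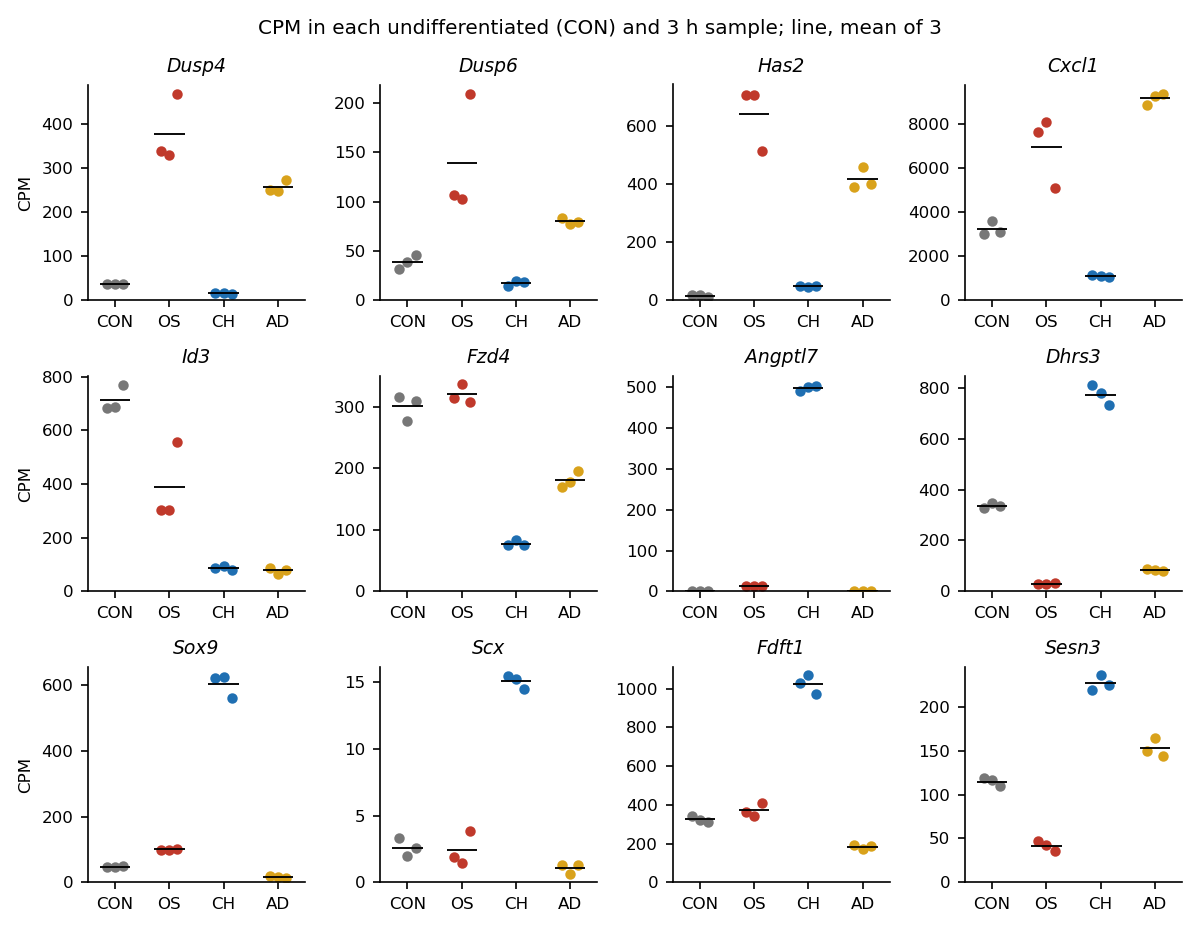
CPM (y axis, from 0) of 12 genes in each undifferentiated sample (CON, grey) and each sample at 3 h of osteogenesis (OS, red), chondrogenesis (CH, blue) and adipogenesis (AD, yellow); lines are means of 3. The 3 OS samples lie above the 3 CH samples in the first 6 genes and below them in the last 6, and the third OS sample departs from the other OS samples in Dusp6, Has2, Cxcl1 and Id3.

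The other genes with the largest differences toward osteogenesis were of several kinds. Has2, the main synthase of hyaluronan, measured 706, 708 and 513 CPM in OS_3h and 49.2, 47.1 and 48.6 CPM in CH_3h, with 13.0 to 18.8 CPM in CON (difference 3.69, SE 0.14, adjusted p = 9.3e-07). Both groups were thus above the undifferentiated cells, OS_3h by far the more. Gprc5a, an orphan receptor inducible by retinoic acid, had 93.2, 86.9 and 140.1 CPM against 12.1, 9.39 and 11.4 CPM (difference 3.14, SE 0.21, adjusted p = 2.9e-05). Ripk2, a kinase that links NOD receptors to NF-kappaB, had 1189, 1237 and 809 CPM against 163, 176 and 174 CPM, and CON lay between the groups at 402 to 412 CPM (difference 2.62, SE 0.16). The chemokine receptor Ccr1 had 83.5, 93.1 and 76.1 CPM in OS_3h, close to CON (69.1 to 79.2 CPM), and 16.6, 15.3 and 9.59 CPM in CH_3h. Akap12, a scaffold of protein kinases A and C whose value sums several entries of that name, had a difference of 2.43 (SE 0.22). Hcar2, a receptor for nicotinic acid and ketone bodies, and Fgl2, a fibrinogen-like protein, had differences of 2.88 (SE 0.27) and 2.71 (SE 0.22) from lower levels, with means of 10.7 and 19.4 CPM in OS_3h. Plau, the urokinase protease, had 38.1, 37.0 and 58.7 CPM in OS_3h, 8.69, 8.37 and 7.25 CPM in CH_3h and 1.53 to 3.49 CPM in CON (difference 2.29, SE 0.22, adjusted p = 0.0002). Among 9 tested matrix proteases and inhibitors it was the member called higher in OS_3h, while the aggrecanase Adamts4 was called higher in CH_3h by 1.48 on the log2 scale (7.19 ± 1.58 against 21.6 ± 1.77 CPM, mean ± SD, n = 3). The shares of all tested genes called in these directions were 2.78% and 6.26%.

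Toward chondrogenesis, Sox9 led the chondrocyte list. It measured 99.2, 99.5 and 103 CPM in OS_3h, 622, 627 and 561 CPM in CH_3h and 46.6, 46.8 and 50.8 CPM in CON (difference -2.57, SE 0.10, adjusted p = 9.3e-07). Both groups thus exceeded the undifferentiated cells, CH_3h by far the more. Scx, the TF of tendon and of cells at the junction of tendon and cartilage, had 1.88, 1.42 and 3.87 CPM in OS_3h and 15.4, 15.3 and 14.5 CPM in CH_3h (difference -2.31, SE 0.29, adjusted p = 0.00089), whereas CON had 1.95 to 3.29 CPM. Runx3, which acts in the maturation of chondrocytes, had 1.41, 0.79 and 2.35 CPM against 6.74, 6.90 and 7.74 CPM (difference -1.74, SE 0.28). Gbx2, a homeobox TF, had 0.157, 0.474 and 1.66 CPM against 2.55, 4.26 and 4.06 CPM, and its call was lost with edgeR and in 4 of the 6 fits that left a sample out. Of 9 tested members these 4 were called higher in CH_3h by limma, against 6.26% of all tested genes. They are also among the TFs that the study chose on these samples, Gbx2 for its change in chondrogenesis, so that the count is not independent evidence of the direction. The count higher in OS_3h was 0 by limma, edgeR and DESeq2 (2 at an unadjusted p under 0.05, of which Chsy1, a chondroitin synthase with a difference of 0.42, also had an adjusted p under 0.05). Sox11 did not pass the test (4.73 ± 2.22 against 9.92 ± 2.14 CPM, adjusted p = 0.085), but was called without OS_3h replicate 3. The cartilage matrix genes Acan, Col2a1 and Comp were near or at the floor in both groups. Acan was listed at 0.150 CPM in CH_3h replicate 1 and at 0 elsewhere, Col2a1 at most at 0.316 CPM and Comp at most at 0.881 CPM, and they were not tested. Col9a2 (0.748 against 1.72 CPM) and Matn4 (1.01 against 1.37 CPM) were tested and did not pass (adjusted p = 0.16 and 0.61).

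Of 8 tested members of the osteoblast list, 4 had a difference above 0 and 4 below, with a median of 0.11. limma called 2 higher in OS_3h, Dlx3 and Hopx, and 0 higher in CH_3h, against 2.78% and 6.26% of all tested genes. The count called higher in CH_3h was 0 with edgeR and 1 with DESeq2. At an unadjusted p under 0.05, 4 members were higher in OS_3h and 3 in CH_3h. Those 3 also had an adjusted p under 0.05 but were under the fold threshold, namely Ibsp, bone sialoprotein (difference -0.93, adjusted p = 0.039), Mgp, matrix Gla protein (-0.68, adjusted p = 0.021), and Ankh, a pyrophosphate transporter (-0.63, adjusted p = 0.015), and were named after their values were seen. The TF Atf4, named likewise, was higher in OS_3h and also under the fold threshold (difference 0.81, adjusted p = 0.001). Dlx3 and Hopx are also among the TFs that the study chose on these samples, Hopx for its change in osteogenesis, so their direction is not independent evidence. Dlx3, a homeobox TF of bone and skin, had 95.6, 95.3 and 111 CPM in OS_3h, 29.97, 29.95 and 31.1 CPM in CH_3h and 27.9 to 31.7 CPM in CON (difference 1.70, SE 0.14, adjusted p = 6.6e-05), so OS_3h departed from the undifferentiated level and CH_3h overlapped it. The mean of Dlx3 in AD_3h was higher still, at 232 CPM, so a level above CON was not particular to osteogenesis. Hopx, an atypical homeobox protein, had 5.33, 5.06 and 6.22 CPM against 1.35, 2.50 and 0.492 CPM, and lost its call without CH_3h replicate 1 or 3. Alpl was listed at 0 in the 6 samples, and Sp7 at 0.138 CPM in OS_3h replicate 3 and at 0 in the others. Runx2, Col1a1, Smad7, Id1 and Fkbp5 were not analysed here. Gldn, a secreted adhesion protein, and Epas1, a hypoxia-inducible factor, were near equal in the 2 groups, with differences of 0.32 (SE 0.10, adjusted p = 0.053) and 0.11 (SE 0.09, adjusted p = 0.48).

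The largest difference of the comparison was that of Angptl7, a secreted angiopoietin-like protein known as a glucocorticoid-induced gene of the eye. It measured 12.1, 13.7 and 12.9 CPM in OS_3h, 490.5, 500.4 and 504 CPM in CH_3h and 0.279 to 0.758 CPM in CON (difference -5.17, SE 0.12, adjusted p = 4.2e-08). The OS_3h samples were above CON as well, and the CH_3h mean was 38.6-fold that of OS_3h. Crispld2, a secreted glucocorticoid-responsive protein, had 86.8, 68.4 and 100.3 CPM in OS_3h, 395, 416 and 375 CPM in CH_3h and 2.15 to 2.79 CPM in CON (difference -2.22, SE 0.15, adjusted p = 2.9e-05). Gadd45b, a stress sensor also induced by TGF-beta, had 88.1, 92.3 and 116 CPM against 283, 307 and 250.2 CPM (difference -1.50, SE 0.14). These 3 were the called members among 10 tested glucocorticoid-responsive genes, whose median difference was -0.04. All 3 were higher in CH_3h, as were 6.26% of all tested genes. limma, edgeR and DESeq2 called 0 of the 10 higher in OS_3h, where limma called 2.78% of all tested genes. At an unadjusted p under 0.05 there was 1, the metallothionein Mt2A, with a difference of 0.69 and an adjusted p of 0.0049, under the fold threshold and chosen after its values were seen. Tsc22d3, a standard glucocorticoid target, was at 76.9, 60.2 and 100.4 CPM in OS_3h and at 145, 138 and 111 CPM in CH_3h, where its difference of -0.75 (SE 0.20, adjusted p = 0.031) was under the fold threshold. Both groups were above CON (25.3 to 31.1 CPM) for Tsc22d3.

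Dhrs3, an enzyme that reduces retinal and is induced by retinoic acid, had the next largest difference. Its levels were 30.2, 28.4 and 34.4 CPM in OS_3h, 809, 778 and 732 CPM in CH_3h and 327, 348 and 335 CPM in CON (difference -4.60, SE 0.12, adjusted p = 5e-08), so that the groups lay on opposite sides of the undifferentiated cells. Mn1, a transcriptional coregulator of skull and face bones, had 12.5, 7.58 and 19.5 CPM against 93.4, 107 and 91.8 CPM (difference -2.88, SE 0.29). Palmd, a palmitoylated cytoplasmic protein, had 7.21, 8.53 and 5.53 CPM against 52.7, 53.9 and 58.8 CPM (difference -2.81, SE 0.20), again with CON between the groups (25.5 to 29.9 CPM). Rpp25, a subunit of RNase P and MRP, had a difference of -2.89 (SE 0.23), Epha4, an ephrin receptor, of -2.84 (SE 0.23), Sh2d4a, an SH2 domain adaptor, of -2.76 (SE 0.27), and Myo7a, an unconventional myosin, of -2.63 (SE 0.23). Mip, Prima1, Kank4 and Trim54 were at or near the floor in OS_3h, and their fitted differences (-3.66 to -2.94) depend on the added 1 CPM. Mip, a water channel of the eye lens, had 11.5, 10.9 and 12.5 CPM in CH_3h and 0 reads in the OS_3h, CON and AD_3h samples, which is at least 25.7-fold higher in CH_3h when 3 reads per library are taken for OS_3h. Prima1, which anchors acetylcholinesterase in membranes, and Kank4, of a family that regulates the actin cytoskeleton, had at most 2 reads in an OS_3h sample and 7.13 to 10.6 and 8.37 to 9.96 CPM in CH_3h. Trim54, a muscle RING finger protein, had at most 5 reads in an OS_3h sample and 7.74 to 10.4 CPM in CH_3h.

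**Figure D3:**
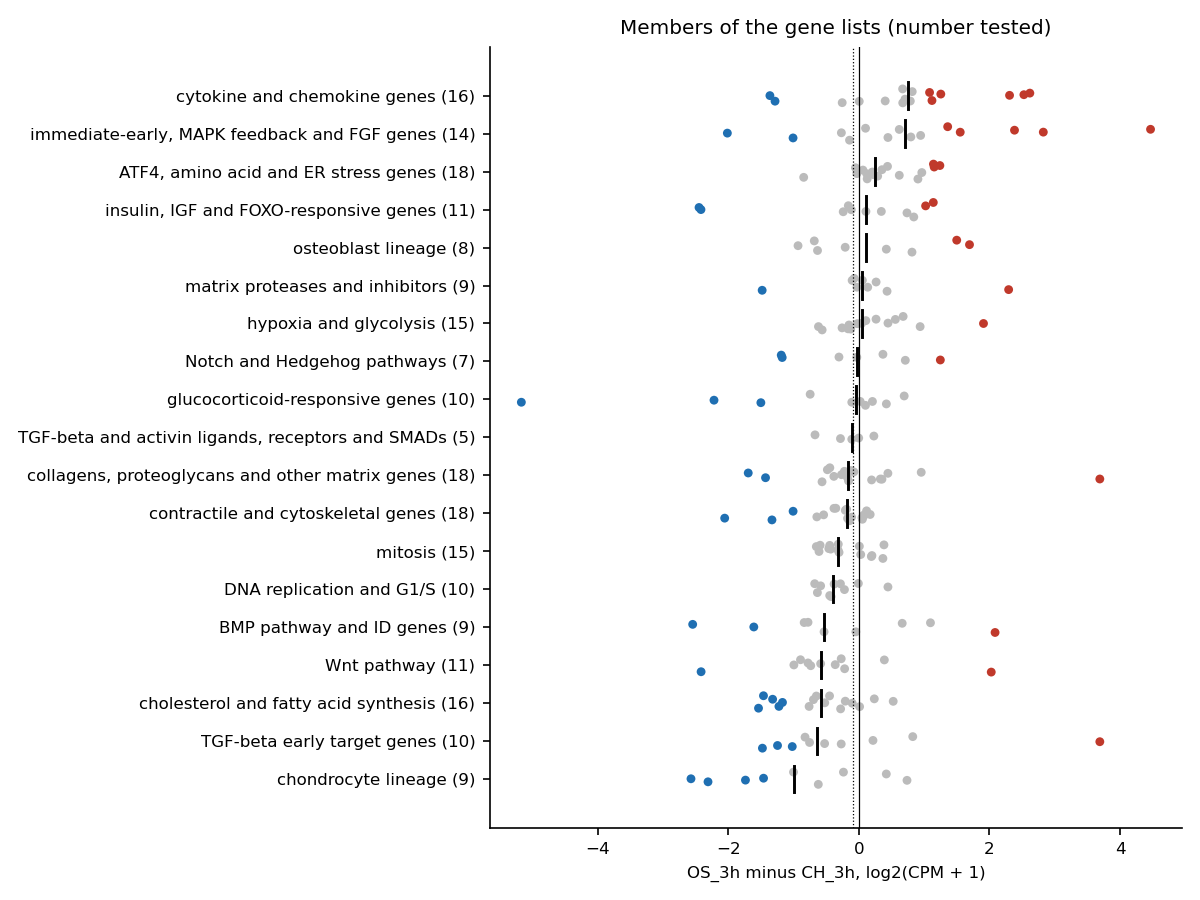
OS_3h minus CH_3h difference (x axis, log2(CPM + 1)) of the tested members of the lists with at least 5 tested members, the number in brackets. Red and blue points are members called higher in OS_3h and in CH_3h, grey points were not called, black bars are list medians and the dotted line is the median of all tested genes; the chondrocyte list has the lowest median and the cytokine list the highest, 0.75.

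Of 16 tested genes of cholesterol and fatty acid synthesis, 13 had a difference below 0, as had 1919 of all 3163 tested genes. Of these 16, 5 were called higher in CH_3h and 0 higher in OS_3h by limma, a count that was also 0 at an unadjusted p under 0.05 and with edgeR and DESeq2, while 6.26% and 2.78% of all tested genes were called. The list median was -0.59. Fdft1, squalene synthase, had 363, 343 and 409.7 CPM in OS_3h and 1026, 1069 and 973 CPM in CH_3h (difference -1.46, SE 0.10, adjusted p = 3.7e-05). Sqle, squalene epoxidase, had 489, 468 and 502 CPM against 1187, 1282 and 1180.2 CPM (difference -1.32, SE 0.09), and Insig1, the sterol-regulated brake on the pathway, had 664, 667 and 691 CPM against 1542, 1663 and 1523 CPM (difference -1.22, SE 0.09). In these 3 genes the CH_3h samples were above each CON sample (312 to 342, 422 to 474 and 708 to 734 CPM). Sc5d, a late enzyme of the pathway, was called with a difference of -1.17 (15.6 ± 1.43 against 36.3 ± 2.23 CPM, mean ± SD, n = 3). At an adjusted p under 0.05 without a minimum fold 9 members were higher in CH_3h, among them Cyp51, Msmo1, Scd2 and Srebf2 (differences -0.69 to -0.45), against 11.3% of all tested genes.

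Genes that answer to insulin, IGF and FOXO factors split between the groups. Sesn3, a FOXO target that restrains mTORC1, had 47.5, 42.8 and 35.3 CPM in OS_3h, 219, 236 and 225 CPM in CH_3h and 109 to 118 CPM in CON (difference -2.42, SE 0.14, adjusted p = 1.3e-05). Igfbp5, an IGF binding protein, had 3.60, 1.42 and 1.38 CPM against 13.2, 17.0 and 15.9 CPM (difference -2.45, SE 0.30). Cited2, a transcriptional coregulator, was higher in OS_3h at 381, 436 and 324 CPM against 189.9, 191 and 175 CPM (difference 1.02, SE 0.13), and Trib2, a pseudokinase, by 1.14. The call of Trib2 was lost in 4 of the 6 fits that left a sample out and that of Cited2 in 2. With 2 of 11 tested members called in each direction, the list median was 0.11. Of all tested genes, 2.78% were called higher in OS_3h and 6.26% higher in CH_3h.

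Among genes of the TGF-beta family and its targets, 0 of 5 tested ligands, receptors and SMADs were called by limma, edgeR and DESeq2 (2 at an unadjusted p under 0.05). In the list of early TGF-beta targets, Has2 was called higher in OS_3h and 3 of 10 members higher in CH_3h, against 2.78% and 6.26% of all tested genes, with a median of -0.64. Tgfbi, a matrix protein named for its induction by TGF-beta, had 15.2, 22.3 and 26.4 CPM in OS_3h and 64.6, 67.4 and 48.7 CPM in CH_3h (difference -1.48, SE 0.23, adjusted p = 0.0028). Angptl2, a secreted angiopoietin-like protein, had 335, 329.9 and 371 CPM against 814, 846 and 798 CPM, with CON above both (1618 to 1788 CPM). Snai2, a repressor of epithelial genes, was at the fold threshold (difference -1.02) and was not called without OS_3h replicate 3 or any CH_3h sample, or under median-ratio scaling, edgeR or DESeq2. Bhlhe40, a clock-linked repressor, had a difference of -0.52 (SE 0.09, adjusted p = 0.0051), under the fold threshold.

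In the BMP pathway, Id3 and Nog moved in opposite directions. Id3, an inhibitor of basic helix-loop-helix TFs and a direct BMP target, measured 305, 303 and 558 CPM in OS_3h, 86.6, 93.5 and 80.8 CPM in CH_3h and 683 to 769.7 CPM in CON (difference 2.09, SE 0.22, adjusted p = 0.00037). Both groups were below the undifferentiated cells, CH_3h the more so. Nog, the secreted BMP antagonist noggin, had 2.82, 3.79 and 5.95 CPM in OS_3h and 29.1, 29.5 and 26.6 CPM in CH_3h, with 6.73 to 10.3 CPM in CON (difference -2.54, SE 0.25, adjusted p = 0.00023). Gdf6, a BMP family ligand of joints, was also higher in CH_3h (5.41 ± 2.77 against 17.4 ± 3.23 CPM, difference -1.61), a call that was lost without CH_3h replicate 2 or 3. Id2 did not pass the test (difference 0.66, SE 0.29, adjusted p = 0.16). Of 9 tested members 1 was called higher in OS_3h and 2 in CH_3h, against 2.78% and 6.26% of all tested genes, and the median was -0.53.

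Wnt genes gave 1 call in each direction among 11 tested, with a median of -0.58. The shares of all tested genes were 2.78% higher in OS_3h and 6.26% higher in CH_3h. Fzd4, a Wnt receptor, had 315, 338 and 309 CPM in OS_3h, 74.8, 84.0 and 75.0 CPM in CH_3h and 278 to 316 CPM in CON (difference 2.03, SE 0.11, adjusted p = 1.1e-05). Lgr5, the receptor of R-spondins that strengthens Wnt signals, had the reverse pattern, with 4.07, 2.84 and 6.09 CPM in OS_3h, 30.3, 27.9 and 22.2 CPM in CH_3h and 26.2 to 30.1 CPM in CON (difference -2.42, SE 0.27, adjusted p = 0.00047). Thus CH_3h departed from the CON level in Fzd4 and OS_3h in Lgr5. Without OS_3h replicate 3 the members called higher in CH_3h were 3 in place of 1. In the Notch and Hedgehog list, the Hedgehog co-receptor Cdon was higher in CH_3h (136, 142 and 134 against 322, 311 and 309 CPM, difference -1.19, SE 0.10, adjusted p = 8.7e-05). Hes6, a Notch-related repressor, was called with a difference of -1.17 from means under 5 CPM, and lost its call in 4 of the 6 fits that left a sample out.

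Of 18 tested members of the list of ATF4, amino acid and ER stress genes, 15 had a difference above 0 (median 0.26), as had 1244 of all 3163 tested genes. limma called 3 higher in OS_3h, against 2.78% of all tested genes, and 0 higher in CH_3h (1 at an unadjusted p under 0.05, 0 with edgeR and DESeq2). At an adjusted p under 0.05 and any fold 6 of the 18 were higher in OS_3h, against 5.12% of all tested genes, and 1 was higher in CH_3h, the TF Creb3l1 (difference -0.84, adjusted p = 0.0057), named after its values were seen. The 3 called members were Mthfd2, a mitochondrial enzyme of folate metabolism (357, 328 and 466 against 173, 169 and 172 CPM, difference 1.14, SE 0.14, adjusted p = 0.0008), the glycine transporter Slc6a9 (1.15) and the serine synthesis enzyme Psat1 (1.24). The count higher in OS_3h was 5 with edgeR and DESeq2 and without OS_3h replicate 2. It was 1 without OS_3h replicate 3, when Mthfd2 and Slc6a9 fell under the threshold, and 1 without CH_3h replicate 3. In the hypoxia and glycolysis list 1 of 15 tested genes was called, the prolyl hydroxylase Egln3, at 28.99, 30.02 and 30.6 CPM in OS_3h and 5.84, 8.95 and 7.13 CPM in CH_3h, both far under CON (150.3 to 168 CPM, difference 1.91, SE 0.21).

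The cell cycle lists held 0 genes called by limma, edgeR or DESeq2 (6 and 5 higher in CH_3h at an unadjusted p under 0.05). Over all tested genes, limma called 2.78% higher in OS_3h and 6.26% higher in CH_3h. Of 10 tested genes of DNA replication and the G1/S step, 9 had a difference below 0 (median -0.40), as had 1919 of all 3163 tested genes, and 5 of them were lower in OS_3h at an adjusted p under 0.05 without a minimum fold, namely Mcm3, Mcm6, Rrm1, Tyms and Rfc3 (differences -0.68 to -0.42). In these 5 genes the means of both groups were above CON, as in Mcm6, a subunit of the replicative helicase, with means of 444 CPM in OS_3h, 708 CPM in CH_3h and 99.2 CPM in CON. Of 15 mitotic genes 1, Kif20a, had an adjusted p under 0.05 (difference -0.59). Of all tested genes, 11.3% were lower in OS_3h by this rule. In such bulk samples a smaller share of cycling cells and less RNA per cell cannot be told apart.

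Of 18 tested collagens and other matrix genes, Has2 was called higher in OS_3h, and Col5a2, a fibrillar collagen chain, and Fbln2, a fibulin, higher in CH_3h, both from means under 5 CPM. Fbln2 had at most 1 read in an OS_3h sample, and Col5a2 was not called without CH_3h replicate 1 or 3. Of 18 contractile and cytoskeletal genes, 3 were called higher in CH_3h and 0 higher in OS_3h by limma, which was also 0 at an unadjusted p under 0.05 and with edgeR and DESeq2. The shares of all tested genes were 6.26% and 2.78%. Ankrd1, a target of mechanical and YAP signals, had 1.25, 1.74 and 1.80 CPM against 8.39, 11.3 and 9.71 CPM (difference -2.05, SE 0.24, adjusted p = 0.00058). Tpm1, a tropomyosin, had 14.4, 18.5 and 11.8 CPM against 36.4, 33.8 and 45.9 CPM (difference -1.33, SE 0.22). Hspb7, a small heat shock protein of muscle, was near the fold threshold (difference -1.01) and was not called by edgeR, DESeq2, after median-ratio scaling, or without OS_3h replicate 1, OS_3h replicate 2 or CH_3h replicate 2. Of the 3 BMSC, 2 adipocyte and 2 endothelial markers tested, 0 were called by limma, edgeR or DESeq2 (2, 1 and 0 at an unadjusted p under 0.05). The 2 BMSC markers were Cd44 (difference 0.76, adjusted p = 0.023) and Itgb1 (0.69, adjusted p = 0.0033), both under the fold threshold, and 1 BMSC and 1 adipocyte marker were called without OS_3h replicate 3.

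Of the 142 TFs that the study listed, a list chosen on these samples and so no independent evidence of direction, 100 were tested, 5 were called higher in OS_3h and 18 higher in CH_3h, against 2.78% and 6.26% of all tested genes. Those higher in OS_3h were Id3, Dlx3, Hopx and the forkhead factors Foxf1 and Foxn1, which had differences of 1.52 and 1.48 from means of 6.16 and 7.81 CPM and each lost the call in 2 of the 6 fits that left a sample out. Higher in CH_3h besides Sox9, Scx, Runx3, Gbx2, Jun, Snai2 and Hes6 were, among others, Tsc22d1, Meox2, Zfp879, Zfp521, Zfhx2, Tead3, Tfcp2l1, Rfx2, Rfx8 and Rab24. Tsc22d1, a TGF-beta-inducible leucine zipper protein, had 8.77, 8.37 and 24.8 CPM in OS_3h and 62.2, 70.5 and 55.6 CPM in CH_3h (difference -2.25, SE 0.36, adjusted p = 0.0031), and the OS_3h samples spanned the CON level (12.5 to 18.05 CPM). Meox2, a homeobox TF of mesoderm, had 41.4, 39.3 and 22.3 CPM against 111, 124 and 121 CPM (difference -1.81, SE 0.23), both under CON (263 to 321 CPM). Zfp521, a zinc finger antagonist of osteoblast and fat cell factors, had 2.51, 1.74 and 2.21 CPM against 9.89, 7.78 and 7.01 CPM (difference -1.54, SE 0.24). Rab24, a small GTPase that the study counted among TFs, had a difference of -1.12 (SE 0.24) and lost its call after quantile normalization and in 4 of the 6 fits that left a sample out. Without CH_3h replicate 3 the TFs called were 2 higher in OS_3h and 10 higher in CH_3h, and without CH_3h replicate 1 the former were 3.

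**Figure D4:**
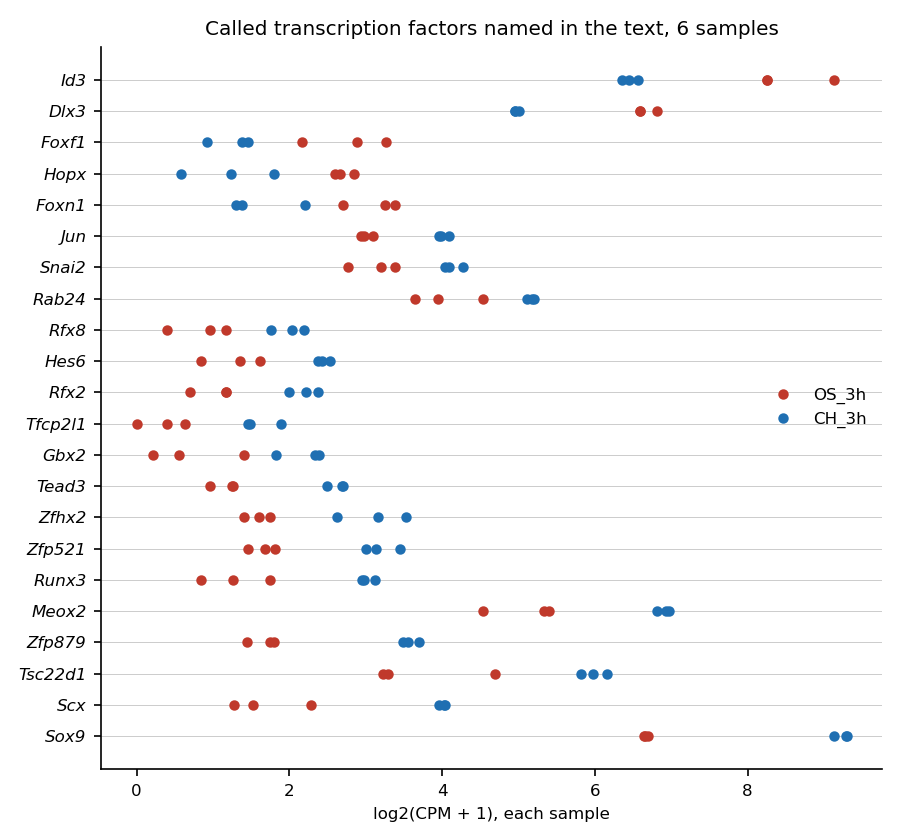
log2(CPM + 1) (x axis) of the called TFs named in the text in each of the 3 OS_3h (red) and 3 CH_3h (blue) samples, ordered by the difference. The groups do not overlap in any of them, the 5 at the top are higher in OS_3h, and those below them, down to Sox9, are higher in CH_3h.

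The undifferentiated and adipogenic samples are given here as levels beside the differences, with no test. The series has no group kept for 3 h without induction, so these levels do not show on which side a difference arose. Among the 88 genes called higher in OS_3h, the CON mean lay below both groups in 33, between them in 40 and above both in 15, against 1779, 603 and 781 of the 3163 tested genes, and it was nearer to OS_3h in 29 and nearer to CH_3h in 59. Among the 198 called higher in CH_3h the numbers were 70, 99 and 29, and the CON mean was nearer to OS_3h in 131 and nearer to CH_3h in 67, against 1584 and 1579 of all tested genes. A call needs distant groups, so a CON mean between them is found more often among called genes by their choice. The AD_3h mean was nearer to OS_3h in 144 of these 198 genes, compared with 1570 of the 3163 tested genes, and in 45 of the 88. Thus Sox9 in AD_3h was at 14.4 to 19.0 CPM and Angptl7 at 0.442 to 0.744 CPM, both under OS_3h. Dusp4 (248 to 273 CPM), Has2 (390.2 to 459 CPM), Cxcl1 (8859.8 to 9363 CPM) and Plau (176 to 203 CPM) were also high in AD_3h, whereas Id3 (65.6 to 88.4 CPM) overlapped CH_3h there.

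The genes called at 3 h were then followed in separate samples of 12 h and 3 d (72 h), each tested in its own fit of 6 samples. At 12 h, 21.6% of 3150 tested genes were called, 12% higher in OS and 9.52% higher in CH, and at 3 d 24.8% of 3324 genes, 10.7% and 14.1%. Of the 286 genes, 245 were tested at 12 h, where 123 (50.2%) were called in the same direction and 12 in the opposite one. At 3 d 236 were tested, and 90 (38.1%) were called in the same direction and 25 in the opposite one. The shares for genes higher in OS_3h and in CH_3h were 50% and 50.3% at 12 h, and 35.4% and 39.2% at 3 d. In the same direction at all times were 63 genes, 15 higher in OS and 48 higher in CH. Sox9 was among them, with means of 18.3 against 638 CPM at 12 h and 31.8 against 1299 CPM at 3 d, as were Scx (0.357 against 26.2 CPM at 3 d), Angptl7 (24.1 against 8135 CPM at 3 d) and Crispld2 (41.1 against 1957 CPM at 3 d). On the side of osteogenesis, Dlx3 had 267 against 22.9 CPM at 12 h and 170.2 against 7.85 CPM at 3 d, and Dusp6, Spry2, Cxcl1, Fzd4 and Hopx also kept their direction. The sterol genes Sqle and Insig1, by contrast, were not called at 12 h, with differences of 0.42 and 0.39, nor was Fdft1, with 820.0 and 822 CPM. At 3 d their differences were again below 0, at -1.12 for Fdft1, which was called, -0.99 for Sqle and -0.64 for Insig1, which were not.

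A change of the OS minus CH difference between 3 h and a later time was tested as an interaction in a fit of the 18 OS and CH samples, in which 15.9% of 3961 genes were called between 3 h and 12 h and 23.7% between 3 h and 3 d. Of the 286 genes, 119 had such an interaction against 12 h and 165 against 3 d, of which 92 and 139 were toward a smaller or opposite difference. These genes were chosen for a large difference in the same 3 h samples, so nothing is read from these counts against the shares of all genes. Has2 turned over, from 643 ± 112 CPM in OS_3h and 48.3 ± 1.04 CPM in CH_3h to 51.9 ± 3.04 and 249 ± 10.4 CPM at 12 h (mean ± SD, n = 3). Dusp4 went from 379 ± 77.0 and 16.0 ± 1.38 CPM at 3 h to 83.3 ± 2.93 and 35.8 ± 6.01 CPM at 12 h and to 5.54 ± 1.13 and 60.6 ± 5.54 CPM at 3 d. Among TFs, Rab24, higher in CH_3h, was called higher in OS at 12 h (29.0 against 4.01 CPM) and again in CH at 3 d (0.814 against 8.59 CPM), and Meox2, higher in CH_3h, was higher in OS at 3 d (654 against 177 CPM).

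**Figure D5:**
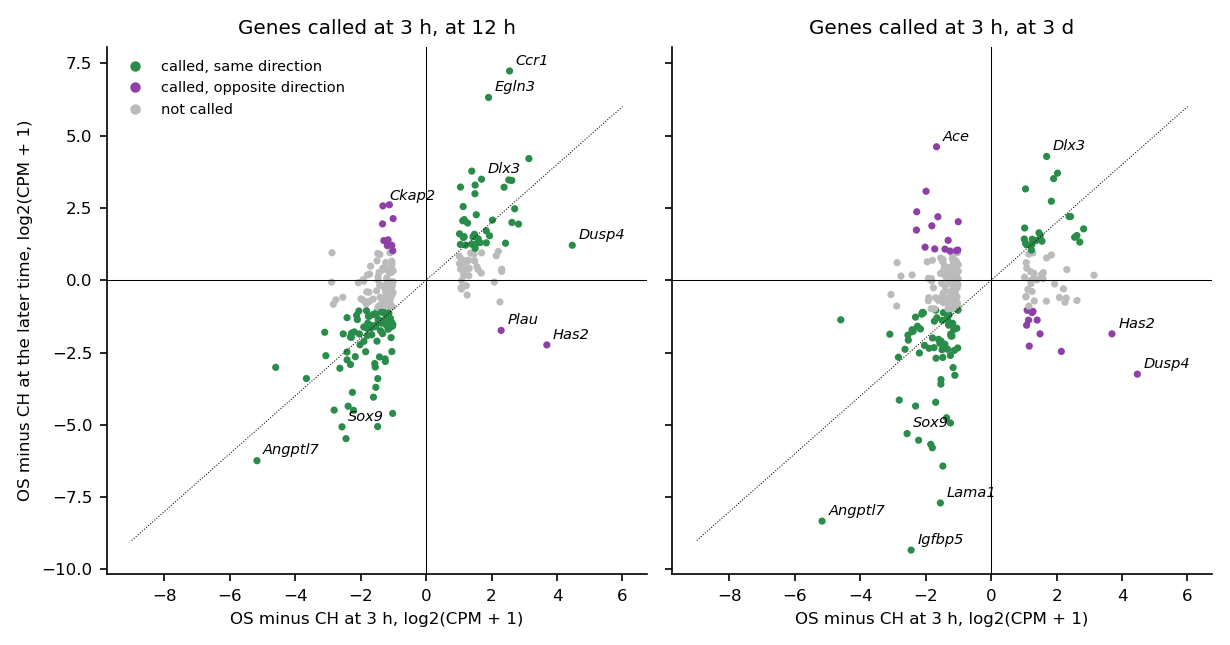
OS minus CH difference at 12 h (left) and 3 d (right) on the y axis against that at 3 h on the x axis, log2(CPM + 1), for the genes called at 3 h that were tested at the later time (245 and 236). Green points were called in the same direction at the later time (123 and 90), purple points in the opposite one (12 and 25, among them Has2 at both times) and grey points were not called; the dotted line marks equal differences.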

How the data were processed

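Reads of 30 samples were processed by the authors, and the submitters' processing notes name Trimmomatic, HISAT2 and StringTie; versions and the genome build are not given in the sources used here. The study's methods name an mRNA library kit and an Illumina NovaSeq instrument, and the labels a ribosomal RNA depletion. The values the authors deposited as FPKM are CPM, since 100% were whole multiples of a step per sample (tolerance 0.05), which gave back the reads. The 10803 entries were summed to 9999 names (729 occurred more than once), and 8356 names matched a RefSeq symbol, 454 a synonym only and 15 were day numbers of a spreadsheet. limma 3.58.1 (trend, R 4.3.3) was fitted on log2(CPM + 1). edgeR 4.0.16 and DESeq2 1.42.0 on the recovered counts were alternatives, besides a pseudocount of 0.1, other filters and scalings, a replicate block, each replicate left out, and, chosen after seeing the data, 2 fits without OS_3h replicate 3. Scripts were tested on simulated data. Named genes were the 12 largest differences per direction with at least 5 CPM and no overlap, called list members (up to 8 per list), called TFs, fixed genes of the lineages and the 5 largest interactions per later time. Members and lists were chosen with earlier results of these data known. Some genes that the rule selects are not reported here. Promoters are from RefSeq, GRCr8. Figures were drawn with matplotlib 3.10.9.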

Additional observations from a re-analysis of the deposited data

Results flagged for a closer look

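For 9 genes called at 3 h the OS minus CH difference itself differed between 3 h and a later time, by the interaction term of limma over 18 samples, and each value below is the difference at 3 h less that at the later time on the log2(CPM + 1) scale. The interactions were also called under each alternative that was run, but at 3 h itself Ckap2 and Lama1 were not called without CH_3h replicate 2, nor was Ckap2 after median-ratio scaling without OS_3h replicate 3. Against 12 h the values were 5.93 for Has2 (SE 0.15, adjusted p = 1.2e-17) and 4.03 for Plau (SE 0.25, adjusted p = 2.7e-11), which were higher in OS at 3 h and higher in CH at 12 h, 3 samples of 3 in each case. The values were -4.68 for Ccr1 (SE 0.43, adjusted p = 1.2e-08) and -4.41 for Egln3 (SE 0.27, adjusted p = 2.8e-11), whose difference toward OS was larger at 12 h, with means of 217 against 0.514 CPM for Ccr1 and 244 against 2.10 CPM for Egln3 (n = 3). For Ckap2, a spindle protein, the value was -3.89 (SE 0.35, adjusted p = 9.0e-09), from 8.24 ± 2.51 against 21.6 ± 2.96 CPM at 3 h to 21.4 ± 1.94 against 2.80 ± 0.607 CPM at 12 h (mean ± SD, n = 3).

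Against 3 d the values were 7.72 for Dusp4 (SE 0.22, adjusted p = 2.0e-17) and 5.55 for Has2 (SE 0.15, adjusted p = 9.9e-18), both turned over. They were 6.89 for Igfbp5 (SE 0.25, adjusted p = 2.1e-15) and 6.15 for the laminin chain Lama1 (SE 0.35, adjusted p = 3.9e-12), whose difference toward CH was larger at 3 d, with 49.7 ± 4.86 against 32633 ± 889 CPM for Igfbp5 and at most 0.151 CPM in OS against 217 ± 4.05 CPM in CH for Lama1. For Ace, angiotensin-converting enzyme, the value was -6.29 (SE 0.36, adjusted p = 4.9e-12), from 1.41 ± 0.941 against 6.28 ± 0.353 CPM at 3 h to 70.8 ± 4.01 against 1.98 ± 0.693 CPM at 3 d.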

How the results depend on the processing

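Of the 286 genes called at 3 h, 202 were called in the same direction under each alternative of scaling, filter, model and test, and 161 without each of the 6 samples in turn. The genes called numbered 519 without a minimum fold (162 higher in OS_3h and 357 in CH_3h), 280 with edgeR and 315 with DESeq2, and 201 to 320 with a sample left out (58 to 91 and 138 to 230, the former 58 without CH_3h replicate 3). The share higher in OS_3h was 30.8%, 44.2% after quantile normalization, 39.5% after median-ratio scaling, 38.9% with edgeR, 40.6% with DESeq2 and 28.1 to 33.1% with a sample left out. Quantile normalization, edgeR and DESeq2 moved the median difference by 0.12, 0.11 and 0.12. Without OS_3h replicate 3, edgeR called 353 genes and limma after median-ratio scaling 298, 267 and 249 of them shared with the 286. The numbers did not pair the samples (correlation of deviations -0.03, -0.14 and -0.21 for replicates 1, 2 and 3), and with the replicate block 262 genes were called, 259 of them shared. Without a minimum fold, 277 genes called at 3 h were called in the same direction at 12 h and 218 at 72 h, and 300 and 349 had an interaction. With a sample left out these were 95 to 132, 70 to 99, 84 to 129 and 121 to 192. Named genes gave 1803 values on the same side of the threshold, 102 that fell under it and 8 that passed it, and none changed sign. The cause of these changes was not tested. The median depth of 6742784 reads per sample leaves genes under 5 CPM with few reads, and 3 samples per group of pooled cultures limit the precision.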
